A study of Mus musculus with 2744 samples.

Results

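The comparison set cells sampled on Day 4 of an in vitro differentiation of mouse embryonic stem cells into motor neurons against cells sampled on Day 2 of the same differentiation. Its members were all wells of the unselected Day 2 and Day 4 plates of the main and the pilot experiment in which at least 500 genes had a read. They came to 720 of the 2744 cells of the whole series, on 6 Day 2 plates and 5 Day 4 plates. The 4 main Day 2 plates held 92, 90, 92 and 87 cells, the 2 pilot Day 2 plates 37 and 38, the 3 main Day 4 plates 85, 51 and 91, and the 2 pilot Day 4 plates 24 and 33. Both groups share everything but the day as far as the labels go, which name neither a stem cell line nor a genotype, strain or dose. Cells were grown as embryoid bodies, small floating aggregates, dissociated with papain, sorted singly into plates and read with a modified CEL-seq protocol. That protocol counts the 3′ ends of polyadenylated RNA. The main and the pilot experiment are the 2 biological replicates of the study. Nothing in the labels says whether the plates of one experiment and day came from separate cultures, so p-values over plates measure the spread between plates and may be too small for cultures.

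Pluripotent cells are kept in that state by a circuit of transcription factors around Pou5f1 (Oct4), Sox2 and Nanog. On the way out of it, cells pass through a stage that resembles the epiblast of the implanting embryo, with high Fgf5, Otx2, Pou3f1 and de novo DNA methyltransferases. The motor neuron protocol cited in the labels is known for adding retinoic acid, a vitamin A derivative, and an activator of hedgehog signalling. Retinoic acid binds nuclear receptors (Rara, Rarb, Rarg), which switch on genes for its own carriers and breakdown and, in neural cells, Hox genes. The order of Hox genes along the chromosome follows the order of their domains along the hindbrain and spinal cord. The labels give neither the agents used here nor their times.

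Gene reads summed over the kept cells of a plate ranged from 8688789 to 36403175. Cells had a median of 3108 to 5539.5 genes on the main Day 2 plates and 2674 to 3378 on the main Day 4 plates, against 1722 and 1870.5 on the pilot Day 2 plates and 1292 and 1409 on the pilot Day 4 plates. The share of wells under 500 genes was 4.17 to 9.38% on Day 2 plates and 11.5, 46.9 and 5.21% on the main and 40 and 17.5% on the pilot Day 4 plates. Spike-in RNA took 2.51 to 3.60% of the gene and spike-in reads of the main Day 2 plates and 8.58 to 10.3% of the main Day 4 plates, and in the pilot 3.68 and 5.45% on Day 2 and 3.17 and 6.52% on Day 4. One cell of the first pilot Day 4 plate, with 6972 genes, held 41.2% of that plate's gene reads, while the deepest cell of any other plate here held at most 7.86%. These differences run with the day, and their part in the results was not tested beyond the values given without the plates or the cell concerned. Levels below are counts-per-million (CPM), the reads of a gene relative to all gene reads of its plate, after scaling between the 11 plates. In plate sums, fewer cells of a type and less RNA per cell cannot be told apart.

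Of 3 markers fixed for the comparison, Pou5f1 and Dnmt3b fell and Hoxb4 rose. Pou5f1 (chr17:35506018-35510772, mm10), a core transcription factor of pluripotency, stood at 509.2, 701, 908 and 728 CPM on the main Day 2 plates and at 490 and 322.7 CPM on the pilot Day 2 plates. On Day 4 it stood at 21.2, 24.1 and 12.5 CPM on the main and at 8.09 and 36.7 CPM on the pilot plates. On each Day 4 plate, 1 cell held 57.7, 82.3 and 19.85% (main) and 97 and 37% (pilot) of the plate's Pou5f1 reads. Every Day 4 plate lay below every Day 2 plate, and the mean fell from 712 ± 163.3 (SD, n = 4) to 19.2 ± 6.03 CPM (SD, n = 3) in the main and from 406.1 ± 117.96 (SD, n = 2) to 22.4 ± 20.2 CPM (SD, n = 2) in the pilot experiment. These are 37-fold and 18.1-fold lower levels, with a fitted log2 change of -4.82 ± 0.44 (SE; edgeR quasi-likelihood test, adjusted p = 0.000135). Dnmt3b (chr2:153649450-153687730, mm10), a de novo DNA methyltransferase that is high in epiblast cells, read 904, 828, 752 and 888 CPM on the main and 838 and 1036 CPM on the pilot Day 2 plates. It read 23, 31.3 and 17.3 CPM on the main and 141.7 and 36.5 CPM on the pilot Day 4 plates, 35.3-fold and 10.5-fold lower (log2 change -4.50 ± 0.45, edgeR adjusted p = 0.000275). On the pilot plate with 141.7 CPM of Dnmt3b, 99.3% of its 3484 reads came from 1 cell.

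Hoxb4 (chr11:96318267-96321638, mm10), a homeobox gene whose domain in the embryo starts in the hindbrain, was close to absent on Day 2, at 2.65, 2.34, 2.64 and 0.369 CPM on the main and 0.0460 and 0.0748 CPM on the pilot plates. On Day 4 it read 119.2, 129.6 and 107.2 CPM on the main and 42.2 and 45.8 CPM on the pilot plates, again with no overlap. Its log2 change was 6.92 ± 0.80 (edgeR adjusted p = 0.00066), and its mean level was 59.3-fold higher in the main experiment. Both Pou5f1 and Hoxb4 changed the same way in the fit on 4 sums, 1 per day and experiment, with an edgeR adjusted p of 0.0152 for Pou5f1 and 0.0553 for Hoxb4, so that Hoxb4 did not pass there. In the fit on 10 such sums of Days 2 to 6 neither passed (edgeR adjusted p = 0.437 for Pou5f1 and 0.0846 for Hoxb4), while Dnmt3b passed in both (0.0152 and 0.00592).

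**Figure D1:**
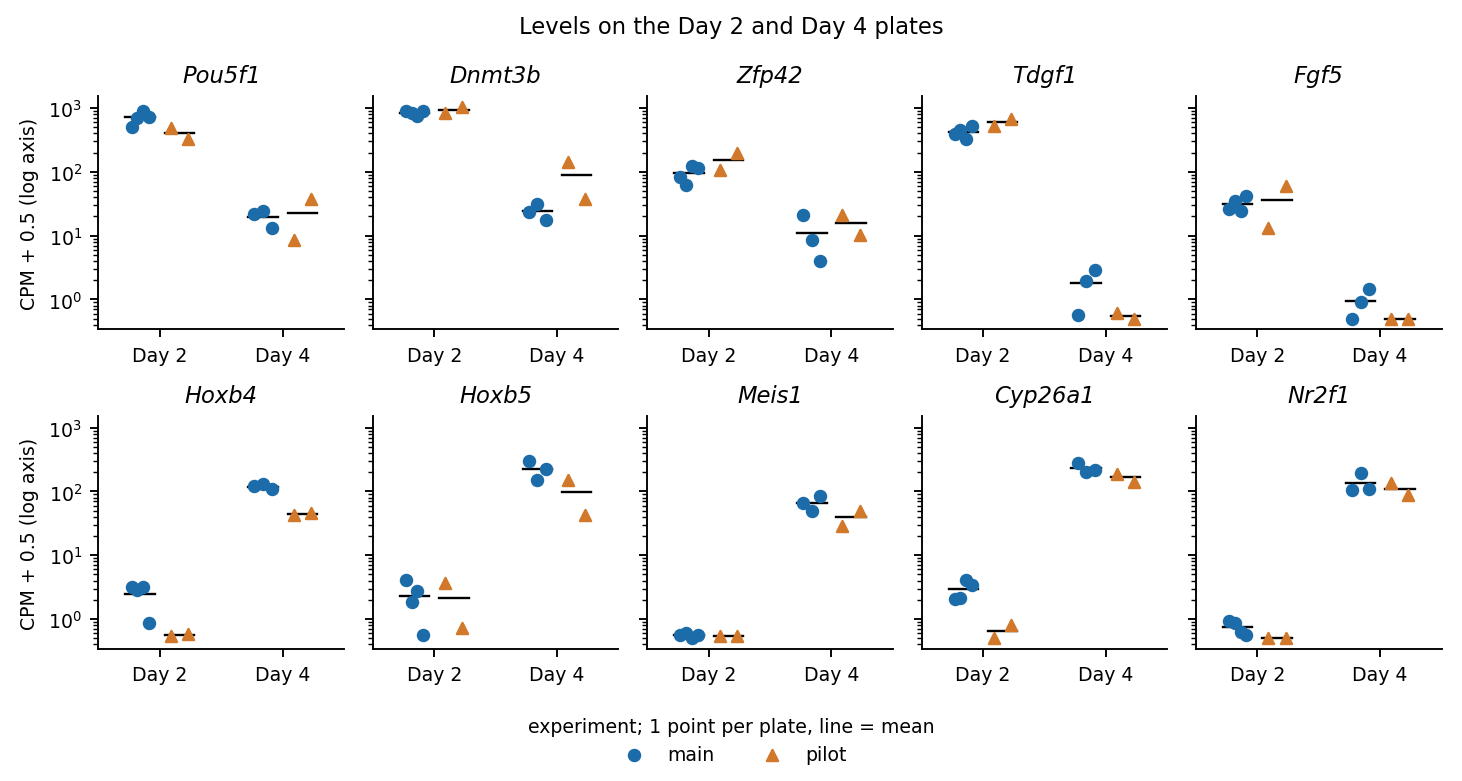
Levels of 10 genes on each plate as CPM + 0.5 on a log axis, Day 2 beside Day 4, with main plates as circles, pilot plates as triangles and lines at the means. Pou5f1, Dnmt3b, Zfp42, Tdgf1 and Fgf5 lie lower and Hoxb4, Hoxb5, Meis1, Cyp26a1 and Nr2f1 higher on every Day 4 plate than on every Day 2 plate of the same experiment. Tdgf1, Fgf5, Meis1, Cyp26a1 and Nr2f1 were named under a rule that required this.

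Over all 13551 genes tested, 0.834% were higher on Day 4 and 1.86% lower at an edgeR adjusted p under 0.05, with the experiment as a block. Of those higher, 99.1% had the same direction in both experiments, and for 96 of them the plates of the days did not overlap in either. Of those lower, all had the same direction in both, and 94.8% did not overlap in either. The genes were called on these same plates, so this agreement is a description and not a replication between experiments. With pilot plates only, 0 genes rose and 0 fell. Whether called or not, plates did not overlap in both experiments for 3.72% of the genes tested in the higher direction and for 6.57% in the lower. The median fitted log2 change was 3.78 among genes that rose and -1.84 among those that fell, against -0.02 over all genes tested. Scaling by the spike-in RNA moved the median of all genes to -1.17 and gave 69 higher and 1431 lower genes, so directions here are relative to the bulk of the reads. Without the 1 deep pilot cell, 0.778% of the genes tested rose and 1.63% fell. Of the genes called with it, 85.8% of the rises and 78.6% of the falls stayed called. The fit on 4 experiment sums, which leaves 1 degree of freedom, called 18 higher (0.131% of 13765) and 9 lower (0.0654%), of which 18 and 8 were among the genes called over plates. Leaving out 1 plate at a time gave 0.351 to 1.16% higher and 0.572 to 2.39% lower genes. Without the 2 Day 4 plates that lost over 30% of their wells 73 genes rose and 1.504% of those tested fell. Without the shallowest main Day 2 plate and the one with fewest genes per cell 29 rose and 37 fell.

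**Figure D2:**
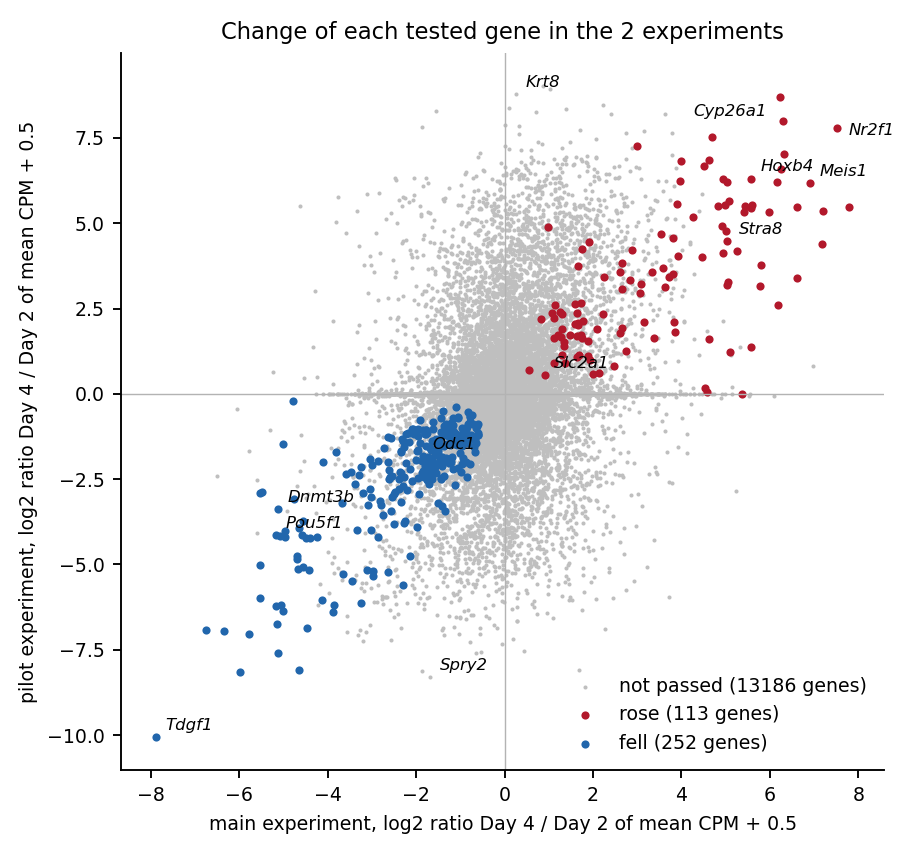
Log2 ratio of Day 4 to Day 2 (mean CPM + 0.5) of each tested gene in the main experiment, horizontal, and in the pilot experiment, vertical, coloured by whether the gene rose, fell or did not pass. All but 1 of the called genes lie in the lower left or upper right part, where both ratios have one sign, while Krt8 lies far higher and Spry2 far lower in the pilot than in the main experiment. The calls come from a fit on the plates of both experiments together.

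Some transcription factors of pluripotency fell. Of 18 tested members of the core and naive list, 4 fell, none rose and 14 did not pass, with a median log2 ratio of -3.22 for main and -1.78 for pilot plates, against 0.01 and 0 over all genes tested. Zfp42 (Rex1), a zinc finger marker of naive cells, read 81.6, 61.3, 122.6 and 115.1 CPM on the main and 107.8 and 193.6 CPM on the pilot Day 2 plates. It fell to 20.5, 8.02 and 3.53 CPM on the main and 20.7 and 9.77 CPM on the pilot Day 4 plates (log2 change -3.21 ± 0.49, edgeR adjusted p = 0.00383). Zfp42 did not pass without the 2 shallow main Day 2 plates (edgeR adjusted p = 0.0808), nor on 4 or 10 experiment sums (0.117 and 0.153). Nr0b1 (Dax1), a repressor that partners Pou5f1, fell from 45.8 to 70.8 CPM on the main and 22.9 and 38.9 CPM on the pilot Day 2 plates to 2.19 CPM on 1 main Day 4 plate, with no read on the other 4 (edgeR adjusted p = 0.0262). Nr0b1 did not pass without any one of the 4 main Day 2 plates or 2 of the main Day 4 plates, with the highest adjusted p at 0.0783.

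Sox2, which pluripotent and neural progenitor cells both use, stayed within a narrower range. It read 183.8, 119.3, 137.2 and 208.9 CPM on the main and 368.2 and 173.3 CPM on the pilot Day 2 plates, and 69.2, 110 and 51.7 CPM on the main and 83.1 and 163.7 CPM on the pilot Day 4 plates. The days did not overlap within either experiment, but the log2 change of -1.10 ± 0.31 did not pass (edgeR adjusted p = 0.0793). Sall4, a zinc finger factor of the same circuit, had a log2 change of -1.05 ± 0.27 (edgeR adjusted p = 0.0578) and Klf2 of -1.81 ± 0.65 (edgeR adjusted p = 0.158). Nanog was already low on Day 2, at 3.21 to 8.92 CPM on the main and 2.44 and 1.72 CPM on the pilot plates, and read 0 to 1.72 CPM on the Day 4 plates (edgeR adjusted p = 0.307). Nanog, Dppa4, Dppa5a, Id1, Pax6 and the Hox genes Hoxb2, Hoxa3, Hoxa4, Hoxa5 and Hoxb6 fall outside the rule for named genes and were chosen after their values were seen. The same holds for Cyp26c1, Pbx2 and Hoxc5, which were not among the called genes examined singly under other settings.

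In the Zfp42 promoter window, 250 bases before to 50 after the start of the gene in RefSeq (GRCm38.p6, chr8:43306960-43307259, minus strand), a search found the octamer ATTTGCAT, which is the reverse complement of the ATGCAAAT known as the binding motif of Pou5f1 and other POU factors. The window is printed because it is the promoter of the naive marker described above, with the match in capitals.
Zfp42: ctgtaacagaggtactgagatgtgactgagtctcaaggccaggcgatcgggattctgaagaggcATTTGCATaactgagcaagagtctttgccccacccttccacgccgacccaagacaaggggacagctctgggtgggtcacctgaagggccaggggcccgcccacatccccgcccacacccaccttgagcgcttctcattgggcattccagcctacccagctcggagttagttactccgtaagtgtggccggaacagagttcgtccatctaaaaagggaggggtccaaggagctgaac
Of 27025 mouse promoter windows of this length, 804 (2.98%) hold ATGCAAAT or ATGCTAAT on either strand. Windows were found for 73.4% of the genes that fell, too few for a share over the set. Of those found, 6 (3.24%) hold a match, against 2.48% of all tested genes with a window, and the difference was not tested. The 6 are Zfp42, Pim2, Chchd10, Egln3, Pipox and Dennd2c. A match describes letters in the window and not binding.

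Other genes typical of stem cells fell in part. Of 15 tested members of a list of RNA-binding proteins, growth factors and other stem cell genes, 8 fell and none rose, with a median log2 ratio of -2.61 for main and -2.50 for pilot plates. Tdgf1 (Cripto), the co-receptor of Nodal, read 388.8, 454.6, 327.97 and 520 CPM on the main and 531.6 and 663 CPM on the pilot Day 2 plates. On Day 4 it fell to 0.0786, 1.42 and 2.38 CPM on the main and 0.122 and 0 CPM on the pilot Day 4 plates. It was 326.6-fold lower in the main experiment (log2 change -9.71 ± 1.16, edgeR adjusted p = 0.000791). Gdf3, a growth factor of the same signalling family, went from 127.8 to 240 CPM and from 104.2 and 116.9 CPM to 1.42 to 12 CPM on the Day 4 plates (log2 change -4.49 ± 0.53, edgeR adjusted p = 0.000765). L1td1, an RNA-binding protein, read 126.5 to 167.9 CPM on the main and 211.01 and 307.4 CPM on the pilot plates. It fell to 1.24 to 4.24 CPM on the main and 36.8 and 32.8 CPM on the pilot Day 4 plates (log2 change -4.67 ± 0.60, edgeR adjusted p = 0.00147). The fall of L1td1 was smaller in the pilot by 2.88 on the log2 scale (interaction, edgeR adjusted p = 0.0449). Dppa5a, whose near-identical copies make its counts uncertain, fell from 1811 to 4018 CPM on the 6 Day 2 plates to 85.2 to 735 CPM on the 5 Day 4 plates, by 3.10 on the log2 scale (edgeR adjusted p = 0.0036). Dppa4, a chromatin protein of early embryos, changed by -2.56 ± 0.40 (edgeR adjusted p = 0.00475), a call lost in limma with the culture as a correlated block (adjusted p = 0.0686).

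Some genes of the epiblast-like stage fell. Of 14 tested members, 7 fell, none rose and 7 did not pass, with a median log2 ratio of -3.69 for main and -2.39 for pilot plates. Fgf5, the growth factor that marks this stage, read 25.9, 34.9, 23.6 and 41.2 CPM on the main and 12.7 and 59.8 CPM on the pilot Day 2 plates. On Day 4 it read 0, 0.418 and 0.953 CPM on the main plates and had no read on the pilot plates (edgeR adjusted p = 0.0225). Taking 3 reads per plate as the limit of detection, it was at least 348.2-fold lower in the pilot. That is a limit for reads, since any cell with the gene could exceed it. With all reads, Fgf5 was in 5 of 75 pilot Day 2 cells and 0 of 57 pilot Day 4 cells (Wilson interval 0 to 6.31%). Pou3f1 (Oct6), a POU factor of the epiblast and neural plate, fell from 192.4 to 328.4 CPM on the 6 Day 2 plates to 8.11 to 13.6 CPM on the main and 0.651 and 0 CPM on the pilot Day 4 plates (log2 change -6.04 ± 1.05, edgeR adjusted p = 0.00933). Lef1, a transcription factor of Wnt signalling, had 15.2 to 38.3 CPM on the main and 3.64 and 2.88 CPM on the pilot Day 2 plates and at most 0.191 CPM on Day 4 plates (edgeR adjusted p = 0.00262). Pim2, a kinase, fell from 107.7 to 182.2 CPM to between 0.0228 and 3.24 CPM (edgeR adjusted p = 0.0023).

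Foxd3, a forkhead factor of epiblast and neural crest, had no read on any Day 4 plate, against 20.8, 20.1, 19.7 and 5.23 CPM on the main and 16.8 and 0 CPM on the pilot Day 2 plates. That is at least 74.7-fold lower for main plates. The pilot mean on Day 2 came from the plate with 16.8 CPM alone, so the pilot limit of at least 80.9-fold rests on that plate. Foxd3 passed in the fit over both experiments (edgeR adjusted p = 0.0414). Otx2, a homeobox factor of the epiblast and forebrain, did not pass although its Day 4 plates all lay lower, with 135.7 to 220 CPM on the main and 29 and 77.8 CPM on the pilot Day 2 plates against 0 to 5.68 CPM and 0 and 17.9 CPM (edgeR adjusted p = 0.0946). Fgf5 did not pass without any one of the 4 main Day 2 plates or 2 of the main Day 4 plates (highest adjusted p 0.0710), nor Foxd3 without any one of the 7 main plates (highest adjusted p 0.115).

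Genes of the FGF and Nodal pathways, which are active in pluripotent cells, fell in part, while the Id genes, targets of BMP signalling, rose. Of 13 tested FGF genes 3 fell and none rose, with a median log2 ratio of -2.04 for main and -1.60 for pilot plates. Fgf4, the main FGF of pluripotent cells, had 69.3 to 90.2 CPM on the main and 83.4 and 110 CPM on the pilot Day 2 plates, and among Day 4 plates had reads on 1 main plate only, at 5.38 CPM. It was at least 927-fold lower in the pilot (edgeR adjusted p = 0.0462). Etv5, a transcription factor induced by FGF, fell from 34.5 to 89.9 CPM to 0 to 7.95 CPM (log2 change -4.93 ± 1.08, edgeR adjusted p = 0.0304). Spry2, a feedback inhibitor of the pathway, did not pass over both experiments (edgeR adjusted p = 0.244). On the main plates Spry2 went from 125.8 to 292.1 CPM to 32 to 94.8 CPM, and on the pilot plates from 148.2 and 180 CPM to 0.0407 and 0 CPM, a difference between the experiments of -11.2 on the log2 scale (interaction, edgeR adjusted p = 0.003). Lefty2, an extracellular inhibitor of Nodal, fell from 27.6 to 50 CPM on the main and 10.4 and 75.1 CPM on the pilot plates to at most 1.62 CPM (log2 change -7.07 ± 1.43, edgeR adjusted p = 0.0211). Fgf4 did not pass without any one of 10 of the 11 plates, all but the first main Day 4 plate (highest adjusted p 0.112), and Etv5 and Lefty2 not without any one of 6 main plates each (highest adjusted p 0.110 and 0.0639).

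The Id genes encode small inhibitors of helix-loop-helix factors and are direct BMP targets. In the list of Nodal, BMP and LIF genes, 3 of 13 tested members rose, all of them Id genes, and 2 fell, Tdgf1 and Lefty2. Id3 read 7.32, 20.7, 18.8 and 24.6 CPM on the main and 0.184 and 0 CPM on the pilot Day 2 plates, and 471.5, 424.4 and 523.8 CPM on the main and 79.3 and 138.5 CPM on the pilot Day 4 plates (log2 change 6.20 ± 0.95, edgeR adjusted p = 0.00388). Its rise was larger in the pilot by 5.53 on the log2 scale (interaction, edgeR adjusted p = 0.0208), where Day 2 held almost no read. Id2 rose from 15.4 to 35.9 CPM to 147.6 to 175.6 CPM on the main plates and from 3.64 and 0.299 CPM to 32.9 and 58.7 CPM on the pilot plates (log2 change 3.51 ± 0.60, edgeR adjusted p = 0.00871). Id1 rose from 0 to 28.2 CPM over the 6 Day 2 plates to 94.7 to 504.3 CPM over the 5 Day 4 plates (log2 change 4.70 ± 1.04, edgeR adjusted p = 0.0311), but did not pass without any one of the 7 main plates (highest adjusted p 0.0869).

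Among the DNA methylation genes, 3 of 11 tested members fell, Dnmt3b, Dnmt3a and Trim28, and none rose. Dnmt3a, the second de novo enzyme, read 309.03, 278.2, 320 and 487.6 CPM on the main and 137.2 and 162.7 CPM on the pilot Day 2 plates. On the Day 4 plates it fell to 55.2, 53.2 and 66.1 CPM and 82.4 and 40.6 CPM (log2 change -2.10 ± 0.33, edgeR adjusted p = 0.00442). Dnmt1, the maintenance enzyme, read 175.5 to 193.5 CPM on the main and 280 and 150 CPM on the pilot Day 2 plates and 110.7 to 143.2 CPM and 111.2 and 154.7 CPM on the Day 4 plates, and did not pass (log2 change -0.61 ± 0.23, edgeR adjusted p = 0.173). Trim28, a corepressor that keeps imprinted regions methylated, fell from 316.9 to 366.5 CPM on the main and 472.9 and 563 CPM on the pilot Day 2 plates to means of 214.4 CPM and 189.01 CPM on the Day 4 plates (log2 change -0.94 ± 0.21, edgeR adjusted p = 0.0311). Of 17 tested polycomb genes only Jarid2, a partner of the PRC2 complex, fell (log2 change -1.50 ± 0.36, edgeR adjusted p = 0.0449). Over all genes tested 1.86% fell. Trim28 did not pass without any one of 8 plates (highest adjusted p 0.135), nor Jarid2 without any one of 9 (highest adjusted p 0.160), in both cases every main plate among them.

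Some genes that carry, break down and sense retinoic acid rose. Of 19 tested retinoid genes 6 rose, none fell and 13 did not pass, with a median log2 ratio of 2.09 for main and 0.11 for pilot plates. Crabp2, which carries retinoic acid to its nuclear receptors, read 9.04, 12.1, 7.91 and 7.26 CPM on the main and 1.52 and 9.58 CPM on the pilot Day 2 plates, and 393.2, 573 and 388.2 CPM and 128.4 and 396.1 CPM on the Day 4 plates. It was 49.8-fold higher for main and 47.3-fold for pilot plates (log2 change 5.61 ± 0.48, edgeR adjusted p = 0.000103), and passed on 4 experiment sums (edgeR adjusted p = 0.00636).

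The 3 retinoic acid hydroxylases, which inactivate it, were all among the genes that rose. Cyp26a1 (chr19:37697798-37701536, mm10) read 1.58, 1.63, 3.64 and 2.95 CPM on the main and 0 and 0.299 CPM on the pilot Day 2 plates, and 281.8, 201.4 and 214.5 CPM on the main and 190 and 140 CPM on the pilot Day 4 plates. It was 94.9-fold higher in the main experiment (log2 change 7.66 ± 0.80, edgeR adjusted p = 0.000359, and 0.0152 on 4 experiment sums). Cyp26b1 had reads on 2 of 6 Day 2 plates, 1.38 CPM at most, and 13.9 to 41 CPM on the main and 19.3 and 53.9 CPM on the pilot Day 4 plates (edgeR adjusted p = 0.0331), at least 307.8-fold higher in the pilot. Cyp26c1 also rose (edgeR adjusted p = 0.0377). The receptor gene Rarb (chr14:16430839-16819156, minus strand, mm10) read at most 0.611 CPM on the Day 2 plates and 22.5, 26.4 and 13.5 CPM and 15 and 29.9 CPM on the Day 4 plates, 84.3-fold higher for main and at least 188.8-fold higher for pilot plates (edgeR adjusted p = 0.0269). Without the 1 deep cell, the first of those pilot plates read 1.12 CPM of Rarb in place of 15 CPM. Rarb did not pass on 4 or 10 experiment sums (edgeR adjusted p = 0.501 and 0.0967). The receptor gene Rara was lower on every main Day 4 plate, with a mean of 67.4 CPM on Day 2 and 16.7 CPM on Day 4, and overlapped on the pilot plates (69.6 and 49 CPM), without passing (log2 change -1.46 ± 0.57, edgeR adjusted p = 0.195). Cyp26b1 did not pass without any one of 7 plates (highest adjusted p 0.0918), nor Rarb without any one of 6 (highest adjusted p 0.0693).

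The promoters of Cyp26a1 and Rarb are known to hold retinoic acid response elements, and both are printed because these genes rose and their windows hold a match. The search used direct repeats spaced by 5 bases, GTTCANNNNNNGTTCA, GTTCANNNNNNGGTCA, GGTCANNNNNNGTTCA and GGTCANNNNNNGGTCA, on both strands of the RefSeq windows (GRCm38.p6, 250 bases before to 50 after the start of the gene). The matches, in capitals, start 32 bases before the start of Cyp26a1 (window chr19:37697558-37697857, plus strand, match on the reverse strand of the window) and 52 bases before that of Rarb (window chr14:16575427-16575726, minus strand, at a start inside the interval of the gene given above).
Cyp26a1: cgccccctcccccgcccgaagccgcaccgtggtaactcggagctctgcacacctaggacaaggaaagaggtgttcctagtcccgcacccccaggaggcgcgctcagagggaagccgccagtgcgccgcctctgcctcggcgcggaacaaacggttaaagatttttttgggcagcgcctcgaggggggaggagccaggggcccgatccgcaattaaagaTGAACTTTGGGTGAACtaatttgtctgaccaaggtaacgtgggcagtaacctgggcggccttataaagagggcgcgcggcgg
Rarb: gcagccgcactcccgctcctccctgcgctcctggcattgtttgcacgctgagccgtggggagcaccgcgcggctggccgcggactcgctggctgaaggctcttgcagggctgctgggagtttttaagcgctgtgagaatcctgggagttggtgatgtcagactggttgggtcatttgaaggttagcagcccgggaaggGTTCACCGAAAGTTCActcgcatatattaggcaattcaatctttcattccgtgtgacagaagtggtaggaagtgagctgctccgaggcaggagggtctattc
Such a repeat is in 73 of the 27025 windows (0.27%). Windows were found for 77 of the genes that rose (68.1%), too few for a share over the set, and among these Cyp26a1 and Rarb alone hold a match, which describes letters and not binding.

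Hox genes that rose all belonged to paralogue groups 1 to 8. Of 8 genes of groups 1 to 3, 7 were tested and 5 rose. Of 15 genes of groups 4 to 8, 11 were tested and 7 rose. Most could be tested only because their Day 4 levels reached the filter on low counts, so these counts are a description, and the difference between groups was not tested. Of 16 genes of groups 9 to 13, 3 were tested and none passed, 5 had no read on either day (Hoxa10, Hoxa11, Hoxc11, Hoxc12, Hoxa13), and all 16 together summed to 3.40 to 22 CPM on the main Day 4 plates. Hoxb9, the member of those groups given as an example, read 6.41, 1.84 and 5.05 CPM on the main and 0.163 and 0 CPM on the pilot Day 4 plates (edgeR adjusted p = 0.12). Hox clusters carry overlapping antisense genes, and since the sources used here do not give the strand setting of the counting, their reads cannot be told apart.

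Among the most anterior members, Hoxa2 had reads on 1 of 6 Day 2 plates, at 0.0374 CPM, and 17.5, 18.1 and 35.5 CPM on the main and 24 and 22.7 CPM on the pilot Day 4 plates, at least 122.4-fold higher in the main experiment (edgeR adjusted p = 0.000465). In the pilot, however, those reads came from 1 of 24 and 2 of 33 cells. Hoxb2 rose from 0.815 to 3.01 CPM to 148.3 to 205.9 CPM on the main plates, and from 11.5 and 0 CPM to 9.76 and 66 CPM on the pilot plates, where the days overlapped (edgeR adjusted p = 0.0436). Hoxd3 rose from at most 0.126 CPM to 19.4 to 38.5 CPM on the main and 0 and 7.97 CPM on the pilot plates (edgeR adjusted p = 0.0122), and Hoxa3 from at most 0.126 CPM to 7.43 to 19.3 CPM and 0.0407 and 0 CPM (edgeR adjusted p = 0.0293). Hoxb1 and Hoxb3 did not pass (edgeR adjusted p = 0.0969 and 0.116). Both were higher on the 3 main Day 4 plates, with 36.1 to 110 CPM of Hoxb1 and 23.5 to 98.7 CPM of Hoxb3, and on the pilot Day 4 plates read 0.732 and 8.74 CPM of Hoxb1 and no read of Hoxb3.

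Of the middle groups, Hoxb5 read 0.0615 to 3.53 CPM on the main and 3.13 and 0.224 CPM on the pilot Day 2 plates. It rose on Day 4, to 303.1, 150 and 221.2 CPM and 151.9 and 42.9 CPM (log2 change 6.56 ± 0.89, edgeR adjusted p = 0.00181, and 0.0152 on 4 experiment sums). Hoxd4 had reads on 1 of 6 Day 2 plates, at 0.302 CPM, and 28.3, 62.7 and 16.7 CPM and 20 and 19.6 CPM on the Day 4 plates (edgeR adjusted p = 0.00383). Hoxa4 had no read on any Day 2 plate or pilot Day 4 plate, and 16.5, 9.78 and 34 CPM on the main Day 4 plates (edgeR adjusted p = 0.0406). Hoxa5, Hoxc5 and Hoxb6 rose as well (edgeR adjusted p = 0.0235, 0.0280 and 0.0149). Hoxc4 did not pass (edgeR adjusted p = 0.135), with 169.1, 72.9 and 132.99 CPM on the main and 14.5 and 3.40 CPM on the pilot Day 4 plates against 0 to 1.26 CPM and 0 and 9.84 CPM on Day 2. Without 1 plate the call was lost by Hoxb2 (any of 8 plates, highest adjusted p 0.127), Hoxa3 and Hoxa4 (any of the 7 main plates each, highest 0.114 and 0.109), Hoxa5 (any of 6, highest 0.0690), Hoxd3 (the main Day 2 plate with fewest reads, 0.0779) and Hoxb6 (the first main Day 4 plate, 0.0524).

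**Figure D3:**
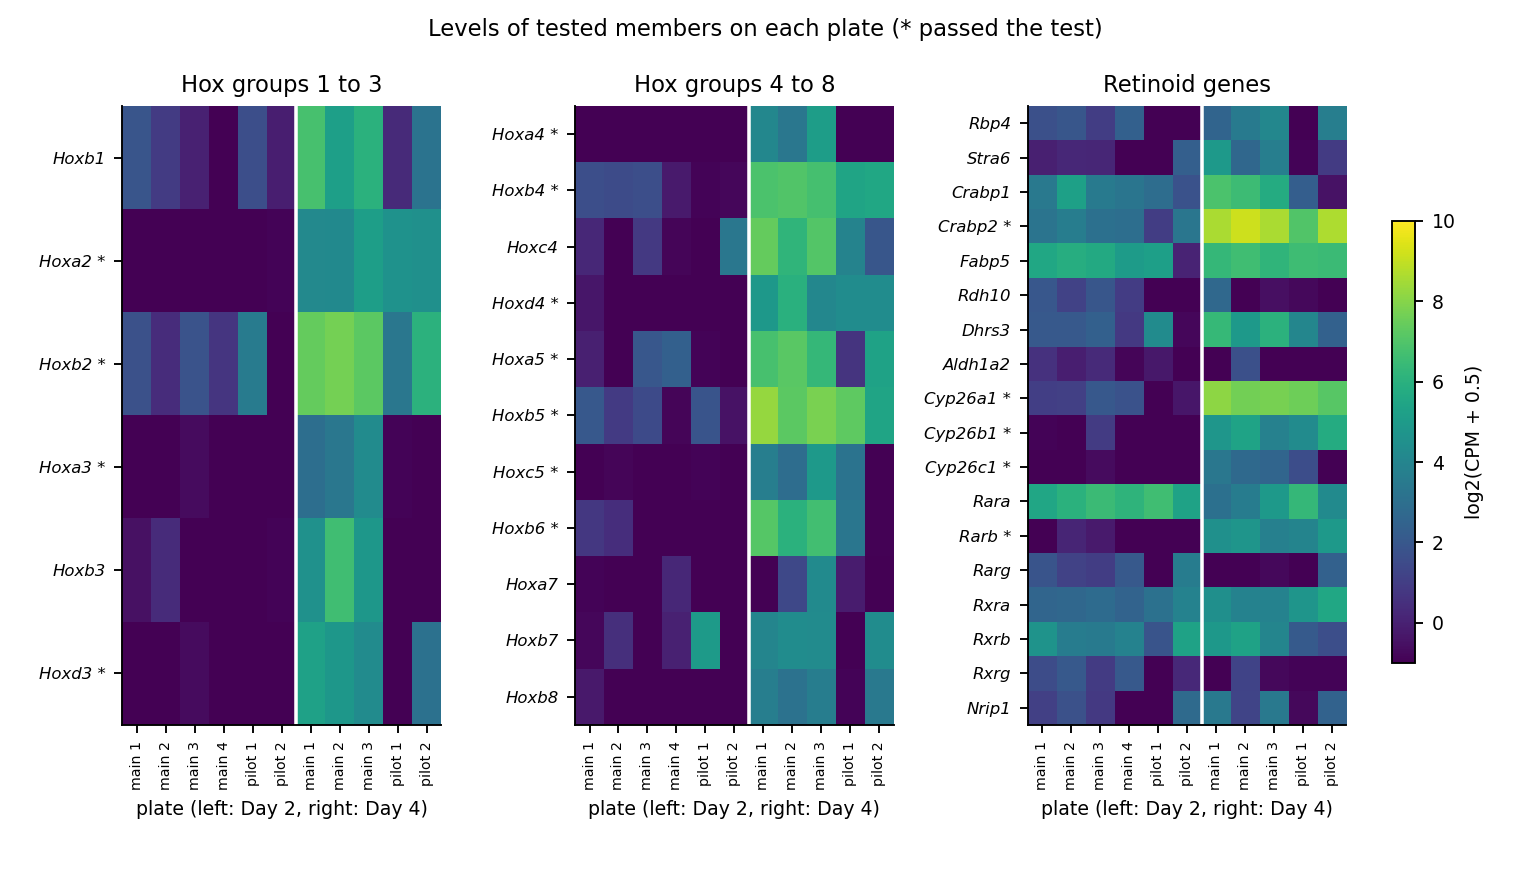
Level of tested Hox genes of groups 1 to 8 and tested retinoid genes (rows) on each plate (columns, Day 2 left of the white line, Day 4 right of it), as colour on a log2(CPM + 0.5) scale from -1 to 10, with a star at genes that passed. Hoxb4, Hoxb5, Crabp2 and Cyp26a1 are high on all 5 Day 4 plates, while Hoxa3, Hoxb3 and Hoxa4 are high on the 3 main Day 4 plates and at or near 0 on the pilot ones.

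Of 10 tested partners and cofactors of Hox factors, which bind DNA together with them, 4 rose, none fell and 6 did not pass. Meis1, a homeodomain partner of Hox proteins, read 0.0672, 0.102, 0 and 0.0615 CPM on the main and 0.0460 and 0.0374 CPM on the pilot Day 2 plates, and 66.1, 48.5 and 85.1 CPM and 28.7 and 48.8 CPM on the Day 4 plates. Its log2 change was 9.82 ± 0.70 (edgeR adjusted p = 2.35e-05, 0.0224 on 4 and 0.218 on 10 experiment sums). Meis2 rose from at most 2.51 CPM to 86.5 to 115.03 CPM on the main and 69.4 and 71 CPM on the pilot plates (log2 change 8.10 ± 1.15, edgeR adjusted p = 0.00254). Pbx2, another homeodomain partner, rose with a log2 change of 1.498 ± 0.30 (edgeR adjusted p = 0.0201).

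Early neural genes rose in part. Of 18 tested neural progenitor genes 4 rose and none fell, with a median log2 ratio of 2.53 for main and 0.44 for pilot plates. Nr2f1 (COUP-TFI), a nuclear receptor of neural progenitors, had at most 0.437 CPM on the main Day 2 plates and no read on the pilot ones, and 106.7, 193.8 and 107.2 CPM and 133.1 and 87.1 CPM on the Day 4 plates. It was 554.6-fold higher for main and at least 926-fold higher for pilot plates (edgeR adjusted p = 0.000121). Hes5, a Notch target of dividing progenitors, rose from 0.0374 to 2.89 CPM to 89.2, 493.6 and 182.9 CPM on the main and 9.11 and 12.7 CPM on the pilot plates (log2 change 7.67 ± 0.75, edgeR adjusted p = 0.000206). Pax6, a homeobox factor of the ventricular zone, rose from 2.18 to 15.6 CPM to 73.7 to 181.9 CPM on the main plates, and read 0 and 0.0374 CPM on the pilot Day 2 and 1.02 and 47.3 CPM on the pilot Day 4 plates (edgeR adjusted p = 0.0365). Sox3 was present before, at 34.1 to 103.8 CPM, and rose to 156.2, 389.02 and 330.8 CPM on the main and 65.7 and 411.7 CPM on the pilot plates (log2 change 1.93 ± 0.42, edgeR adjusted p = 0.0293). Vim, an intermediate filament of progenitors, did not pass (log2 change 1.12, edgeR adjusted p = 0.167). Pax6 did not pass without any one of 9 plates (highest adjusted p 0.106), nor Sox3 without any one of 8 (highest adjusted p 0.0820). Sox3 also did not pass with the culture as a correlated block (limma adjusted p = 0.421) or with spike-in scaling (edgeR adjusted p = 0.481).

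Among genes that pattern the neural tube from back to belly, the fitted level was higher for 14 of 18 tested members and lower for 4. The median log2 ratio was 1.66 for main and 0.58 for pilot plates. By the test, 1 of the 18 was called, a rise, against 0.834% of all genes tested that rose. It was Ptch1, the hedgehog receptor and a target of the pathway, which read at most 0.662 CPM on the Day 2 plates and 5.19, 34.4 and 2.67 CPM on the main and 1.46 and 2.01 CPM on the pilot Day 4 plates (log2 change 5.11 ± 1.21, edgeR adjusted p = 0.0427). Ptch1 did not pass without any one of 8 plates (highest adjusted p 0.147). Other large rises outside the lists were Ednrb, an endothelin receptor, from at most 0.302 CPM to 28.6 to 73.6 CPM over the 5 Day 4 plates (edgeR adjusted p = 0.00147), and Tshz1, a zinc finger factor, from at most 0.411 CPM to 26.8 to 97.5 CPM (edgeR adjusted p = 0.00298). Nedd9, a scaffold protein, and Zadh2 rose with an edgeR adjusted p of 0.0225 and 0.0200, and did not pass without any one of 5 and of 3 plates (highest adjusted p 0.0695 and 0.0754).

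Neuronal genes were not higher by the test. Of 19 tested members none rose and 1 fell, Stmn2, a tubulin-binding protein of growing neurites. Over all genes tested 1.86% fell. The fitted level was higher for 13 of the 19 and lower for 6, with a median log2 ratio of 1.52 for main and -0.09 for pilot plates. Stmn2 read 115.5, 148.2, 198.3 and 250 CPM on the main and 138.7 and 24.1 CPM on the pilot Day 2 plates, and 34.2, 10.2 and 8.39 CPM and 18.7 and 12 CPM on the Day 4 plates (log2 change -2.99 ± 0.55, edgeR adjusted p = 0.0140). Gap43, another growth cone protein, went the same way without passing (log2 change -5.01 ± 1.56, edgeR adjusted p = 0.101). Summed over the list, neuronal genes stood at 272.8 to 434.6 CPM on the main and 180 to 410 CPM on the pilot Day 2 plates, and at 170 to 484.1 CPM and 53.8 to 78.7 CPM on the Day 4 plates. Stmn2 did not pass without any one of 5 plates (highest adjusted p 0.0643).

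Of the adhesion genes of epithelia and mesenchyme, 2 of 19 tested fell, both epithelial. Cdh1 (E-cadherin) read 1272, 1466, 2151 and 1673 CPM on the main and 979 and 2371 CPM on the pilot Day 2 plates. The Day 4 plates fell to 495.4, 651 and 907 CPM and 590 and 309.3 CPM (log2 change -1.49 ± 0.29, edgeR adjusted p = 0.0164). Epcam, a cell surface protein of epithelia, fell from 110 to 163.4 CPM to 22.1 to 84.8 CPM (log2 change -1.55 ± 0.33, edgeR adjusted p = 0.0248). Cdh1 did not pass without any one of 4 main plates (highest adjusted p 0.0649), nor Epcam without any one of 6 (highest adjusted p 0.110).

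Other large falls outside the lists were Mcf2, an exchange factor of small GTPases, from 49.9 to 101.7 CPM over the 6 Day 2 plates to at most 0.691 CPM (log2 change -9.36 ± 1.19, edgeR adjusted p = 0.00132), and Pla2g10, a secreted phospholipase, from 40.2 to 100.9 CPM to at most 3.05 CPM (edgeR adjusted p = 0.0198). Nqo1, a quinone reductase, fell from 38.2 to 88.2 CPM to at most 4.35 CPM (edgeR adjusted p = 0.0320), and Cth, which makes cysteine from cystathionine, from 171.5 to 627 CPM to 0.0407 to 32.6 CPM (edgeR adjusted p = 0.0243). Pla2g10 and Cth did not pass without any one of 5 plates each (highest adjusted p 0.0632 and 0.0703), nor Nqo1 without any one of 6 (highest adjusted p 0.104).

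Cell cycle genes showed single changes. Over all genes tested 0.834% rose and 1.86% fell. A single call in a list here therefore describes that gene and not the list. Ccnd2, a D-type cyclin that drives cells out of G1, read 2.13 to 10.8 CPM on the main and 3.54 and 0.0374 CPM on the pilot Day 2 plates. On Day 4 it rose to 135.8, 402.1 and 237.5 CPM and 183.1 and 44.9 CPM (log2 change 5.47 ± 0.83, edgeR adjusted p = 0.00383, and 0.0152 on 4 experiment sums). Ccne1, the cyclin of the G1 to S step, fell from 242.9 to 600 CPM to 13.9 to 207.4 CPM (log2 change -1.84 ± 0.44, edgeR adjusted p = 0.0443), a call lost without any one of 9 plates (highest adjusted p 0.142). These were 1 rise and 1 fall among 15 tested cyclins and inhibitors. Of 26 genes of S phase and mitosis 1 fell, Mcm2, a subunit of the replicative helicase (log2 change -1.67 ± 0.28, edgeR adjusted p = 0.00861), while Top2a, a topoisomerase of dividing cells, did not pass (log2 change -0.77 ± 0.22, edgeR adjusted p = 0.0786). Among 18 glycolysis genes Ldhb fell (log2 change -1.96 ± 0.34, edgeR adjusted p = 0.00887) and the glucose carrier Slc2a1 rose (log2 change 0.78 ± 0.17, edgeR adjusted p = 0.0320). Slc2a1 was lower on Day 4 under spike-in scaling (log2 change -0.27) and did not pass without the 1 deep pilot cell (adjusted p 0.213) or without the first pilot Day 2 plate (adjusted p 0.0579). Of 15 genes that respond to tissue dissociation 1 fell, the chaperone Hsp90aa1 (log2 change -1.33 ± 0.18, edgeR adjusted p = 0.00209). Hsp90aa1 did not pass with the culture as a correlated block (limma adjusted p = 0.0515) and had a positive log2 change of 0.35 with cells counted (adjusted p = 0.184). None of 14 p53 and apoptosis genes or 17 imprinted genes passed.

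**Figure D4:**
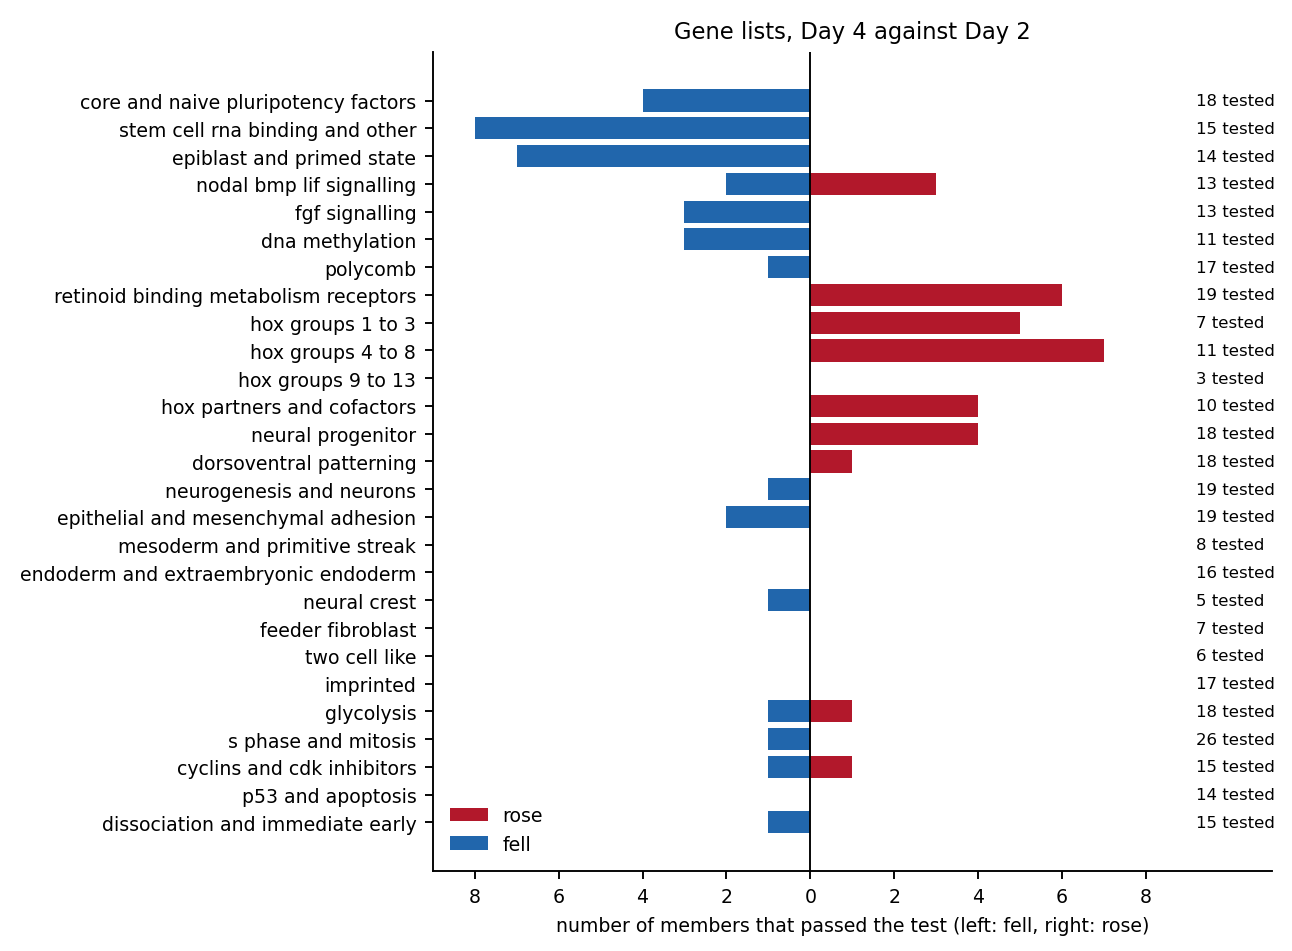
Number of members of each gene list that fell (bars to the left) or rose (bars to the right) on Day 4 against Day 2, with the number tested at the right edge. Falls fill the pluripotency, stem cell, epiblast and FGF lists and rises the retinoid, Hox, Hox partner and neural progenitor lists, while the lists of other cell types hold at most 1 called member.

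Some calls given above ended under other settings. With the culture as a correlated block, Jarid2, Ptch1, Stmn2, Slc2a1, Hoxa4 and Hoxa3 also did not pass (limma adjusted p = 0.206, 0.112, 0.183, 0.155, 0.175 and 0.190). With spike-in scaling, neither did Cyp26b1, Id2, Ptch1, Slc2a1 and Pax6 (edgeR adjusted p = 0.0517, 0.119, 0.0790, 0.728 and 0.0963). With all unselected plates, Fgf5, Fgf4, Zfp42, Sox3, Cdh1, Epcam, Hsp90aa1 and Dppa4 did not (edgeR adjusted p from 0.0611 to 0.339). Counted in cells, Trim28, Jarid2, Cdh1, Epcam, Ldhb, Slc2a1, Mcm2, Ccne1 and Dppa5a did not (adjusted p from 0.0597 to 0.559).

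Markers of other cells that such a culture could hold were few among the called genes. Of 8 tested mesoderm and primitive streak genes none passed. Msgn1 and Kdr of that list had no read on either day, and its sum was 43.9 to 70.4 CPM on the main and 41.2 to 66.3 CPM on the pilot Day 2 plates against 5.88 to 13.3 CPM and 26.7 to 37 CPM on the Day 4 plates. Tcf15 and Eomes, transcription factors of early mesoderm, missed the threshold on the lower side (log2 change -4.29 and -6.01, edgeR adjusted p = 0.0544 and 0.0693). Of 16 tested endoderm genes none passed, and their sum was 246.8 to 458.2 CPM and 257.2 to 445.02 CPM on Day 2 and 378.6 to 757 CPM and 272.9 to 747 CPM on Day 4. The sum of the neural crest list was 10 to 54.2 CPM and 0.354 to 25.2 CPM on Day 2 and 12.1 to 28.1 CPM and 0.222 to 59.5 CPM on Day 4, with 1 fall among 5 tested, Foxd3. The sum of the fibroblast list, in which Lum had no read, was 9.08 to 40.4 CPM and 3.04 to 9.48 CPM on Day 2 and 7.92 to 130 CPM and 5.75 to 29 CPM on Day 4, with none of 7 called. That of the two-cell list, in which Dux had no read, was 4.53 to 42 CPM and 0.177 to 3.95 CPM on Day 2 and 5.66 to 257.01 CPM and 2.22 to 231.5 CPM on Day 4, with none of 6 called. The part of these cells in the results was not tested.

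The markers were also counted as shares of cells. After thinning each cell to 10000 gene reads, Pou5f1 had a read in 96.7, 96.6, 97.8 and 88.4% of cells on the main and 64.9 and 40.5% on the pilot Day 2 plates, and in 5.88, 3.92, 7.78, 8.33 and 15.2% on the main and pilot Day 4 plates. Pooled over the main plates, that was 94.9% of cells (Wilson 95% interval 92.1 to 96.8) on Day 2 and 14 cells or 6.19% (3.73 to 10.1) on Day 4. In the pilot it was 39 of 74 cells (52.7%) and 7 of 57 (12.3%). With all reads the main shares were 98.1 and 18.1%. On Day 6, when the gene's level was lowest, no main cell had a Pou5f1 read after thinning, which allows a share of up to 0.847%, and 3 of 71 pilot cells (4.23%) did. The intervals of the pilot shares on Day 4 (6.08 to 23.2%) and Day 6 (1.45 to 11.7%) overlap. These intervals and limits cover counting error only, since reads without molecular identifiers are not independent molecules.

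Hoxb4 had a read in 5 main cells on Day 2 (1.41%) and in 86 on Day 4 (38.1%). In the pilot it was in 0 of 74 cells on Day 2, which allows a share of up to 4.05%, and in 8 of 57 on Day 4 (14%). Averaged over the experiments, the share of cells with a read fell by 65 percentage points for Pou5f1, 58.7 for Dnmt3b, 58 for Dppa5a, 29.5 for Sox2, 23.4 for Zfp42 and 10.3 for Fgf5. It rose by 31.5 points for Cyp26a1, 27.2 for Hoxb2 and 25 for Hoxb4. For each of these 9 the two-sided exact permutation test of plates within experiments gave an adjusted p of 0.00635 over 12 markers, from the smallest p that its 210 arrangements can give (0.00476). Nanog fell by 3.35 points (exact permutation test, adjusted p = 0.0114), but not past the threshold when thinned to 2000 reads (0.429) or with at least 10 reads (0.213). Pax6 rose by 13.3 points (exact permutation test, adjusted p = 0.0156), with 0.0545 without any one of the 4 main Day 2 plates. Sox2 and Nanog passed here and not in the test on plate sums. The share for Nes, a progenitor filament, differed by 1.12 points without passing (exact permutation test, adjusted p = 0.457). Of the 14 main Day 4 cells with a Pou5f1 read, 6 also had a Hoxb4 read (42.9%, Wilson interval 21.4 to 67.4%). Of the main cells without a Pou5f1 read, 37.7% did (31.5 to 44.4%). In the pilot, 0 of 7 Day 4 cells with a Pou5f1 read had a Hoxb4 read (0 to 35.4%). Of the 50 pilot cells without, 16% did (8.34 to 28.5%). The intervals overlap in both experiments, so these few cells cannot show whether the reads go together.

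**Figure D5:**
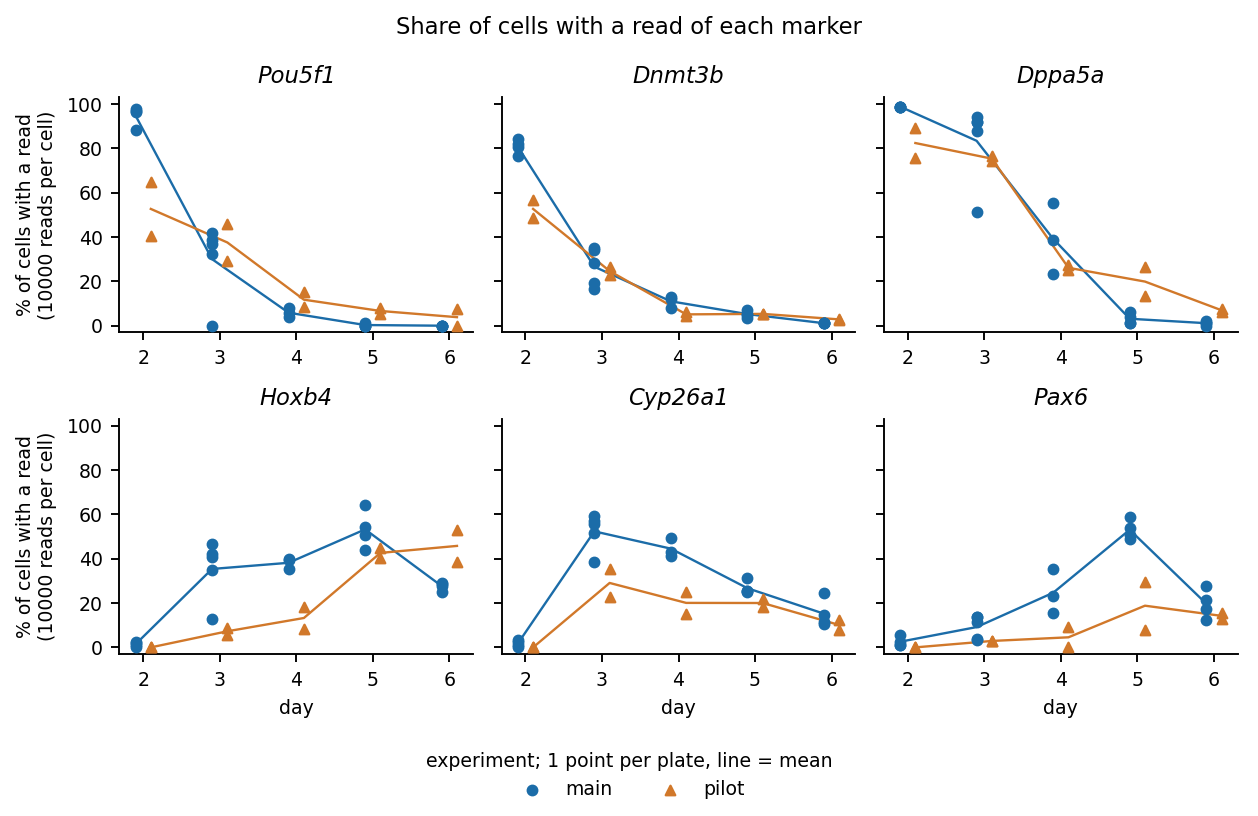
Share of cells with a read of each of 6 markers after thinning to 10000 reads per cell, in percent, against the day of sampling, with main plates as circles, pilot plates as triangles and lines at the means. Between Day 2 and Day 4 the Pou5f1, Dnmt3b and Dppa5a shares drop on every plate, those of Hoxb4 and Cyp26a1 go up on every plate, and that of Pax6 goes up on all but 1 pilot plate.

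The change differed between main and pilot for 2.24% of 14499 genes tested for an interaction (edgeR adjusted p under 0.05). Among them were 3 genes that rose, Id3, Fzd3 and Mdk, and 1 that fell, L1td1, of which Fzd3 and Mdk were named after their values were seen. Pilot levels of many Hox and neural genes on Day 4 were lower than main levels, as for Hoxb4, Hes5 and Hoxc4, but for these genes the interaction did not pass.

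The other days place the change within the course. Scaled over all 30 unselected plates, Pou5f1 went through 687, 77.4, 20.1, 1.46 and 0.0325 CPM from Day 2 to Day 6 in the main and 393.8, 294.4, 24.2, 46 and 9.98 CPM in the pilot experiment. Dnmt3b went through 816, 54.7, 24.9, 10.1 and 3.22 CPM on main and 903, 128.5, 95.7, 20.5 and 4.70 CPM on pilot plates. Most of the fall of both genes in the main plates, and of Dnmt3b in the pilot, lay between Day 2 and Day 3, while most of that of Pou5f1 in the pilot lay between Day 3 and Day 4. Hoxb4 went through 1.94, 120, 124.05, 152.8 and 99.7 CPM on main and 0.0581, 22.7, 47.4, 130 and 128.6 CPM on pilot plates. Cyp26a1 peaked on Day 3 in both, and read 2.36, 344.5, 243.3 and 96.4 CPM on main and 0.141, 230, 177.6 and 91.5 CPM on pilot plates on Days 2, 3, 4 and 6. Nr2f1 kept rising in the main plates, through 0.239, 17.3, 141.9, 385.3 and 600 CPM. For genes that moved by over 1 on the log2 scale, the median share of the rise present on Day 3 was 73.3% for main and 52.8% for pilot plates, and of the fall 65.9% and 47.6%. One main Day 3 plate stands apart, with a median of 1222 genes per cell, and without it the main values were 73.4% and 69.8%. By Day 6, 53.1% of the genes that rose lay further from Day 2 than on Day 4 for main and 54.9% for pilot plates, as did 59.5% and 49.2% of those that fell. Most of the change had gone back by Day 6 for 15.9% of the genes that rose in each experiment and for 15.9% and 16.3% of those that fell. These values are a description with no test.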

How the data were processed

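Single-cell libraries of 11 plates were used, 6 labelled Day 2 and 5 labelled Day 4, from 2 experiments. The authors deposited read counts per gene and well for each plate, not normalized and without molecular identifiers. TopHat2 2.1.1, HTSeq 0.6.1 and build mm10 are named in the submitters' processing notes. Each table had 24092 rows, of which 92 were spike-ins and 5 counter summaries. Genes under 1 name in all tables (23968) were used, and 27 names that differ were left out. Over all 832 wells of the 2 days, kept or not, summary lines took 36.4% of all counts, reads that did not align uniquely 27.5% alone, and spike-ins 3.99%. Columns that matched no labelled sample (40) were not used. Of 832 wells, 112 with under 500 genes were left out. No doublet caller was run on these singly sorted cells, so doublets were not tested for, the deep pilot cell included.

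Counts were summed per plate and tested with edgeR 4.0.16 in R 4.3.3 (filterByExpr, TMM, quasi-likelihood test of day with experiment as a block, two-sided, Benjamini-Hochberg adjustment, threshold 0.05, 8 residual degrees of freedom). An added 0.5 CPM entered the log2 ratios per experiment. Limits of detection were 3 reads per plate. In the pilot the median count of a detected gene in a cell, given below, was far above that limit. Folds given there as at least are therefore limits for reads and not for cells. For lists, medians are given per experiment in place of the fitted change, which for genes without reads on 1 day depends on the prior count. Named genes were the 3 markers, the 12 largest rises and 12 largest falls with plates that do not overlap and at least 20 CPM on the higher day in both experiments, and up to 3 called members of each list. Each list also gave up to 2 members called in the opposite direction to most, or else the 2 with the highest mean CPM that did not pass. The members and lists were chosen with earlier results of these data known. Shares of cells were taken after thinning each cell to 10000 gene reads, leaving out 7 Day 2 cells and 1 Day 4 cell below that depth. Alternatives included DESeq2 1.42.0, limma 3.58.1, other scalings and filters, sums per experiment, and leaving out plates. The test was tried on simulated data with known changes. The median count of a detected gene in a cell was 11 reads on main and 113 on pilot plates. Some called genes are not reported here.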

Additional observations from a re-analysis of the deposited data

Results flagged for a closer look

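Among the 4 main Day 2 plates, 1 plate lay far from the other 3 (Dixon's test at the 95% level) in 14 of 97 sets of plate values. Chance alone gives about 1 in 20, but that level does not apply to genes with reads on 1 of the 4 plates (Tshz1, Hoxd3, Hoxd4, Hoxb9 and Hoxa3), where any read passes the limit. The fourth plate had the low value for Hoxb4 (0.369 CPM), Foxd3 (5.23 CPM) and the share of cells with a Pou5f1 read (88.4%). The first plate had the high value for Ednrb (0.302 CPM), Hoxd4 (0.302 CPM), Hoxb9 (0.470 CPM) and Zscan4c (30.3 CPM), a gene of two-cell-like cells, and the low value for Top2a (1124 CPM). The second plate had the high value for Id2 (35.9 CPM) and Vim (184.8 CPM). The third plate, with the fewest reads, had the high value for Tshz1 (0.251 CPM), Cyp26b1 (1.38 CPM), Hoxd3 (0.126 CPM) and Hoxa3 (0.126 CPM).

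The change from Day 2 to Day 4 differed between pilot and main by 2.88 for L1td1, by 5.53 for Id3 and by -11.2 for Spry2 on the log2 scale (pilot minus main, edgeR interaction test).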

How the results depend on the processing

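Shares are of genes tested. The 0.834% rises and 1.86% falls became 4.14% and 3.86% with DESeq2, 0.509% and 10.6% with spike-in scaling, 0.131% and 0.0654% on 4 experiment sums and 0.0939% and 0.0250% on 10 experiment sums of Days 2 to 6. They were 7.77% and 8.49% with main plates only and 11.2% and 14.2% with cells counted. Rises came to 2.37% with all unselected plates and to 1.15% in limma with the culture as a correlated block, and falls to 1.29% with no experiment term. Pilot plates only gave 0 and 0 with edgeR, with 710 genes at an unadjusted p under 0.05. Rises were 0.513% without the 2 Day 4 plates that lost over 30% of wells. Without 2 shallow main Day 2 plates they were 0.222%, with 0.283% falls. Both of these were chosen after seeing the data, as was leaving out the 1 deep cell. Leaving out 1 plate gave 0.351 to 1.16% rises, 0.572 to 2.39% falls and 0.655 to 11.4% genes whose change differed between the experiments. That last share, 2.24%, became 9.73% with DESeq2. The share of rises among calls was 31%, and 40% with RLE scaling, 51.7% with DESeq2, 4.6% with spike-in scaling and 47.8% with main plates only. The cause of these shifts was not tested.

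Of 74 called genes examined singly, 41 passed without any one plate, 73 without the deep cell, 64 with the culture as block, 67 with spike-in scaling, 55 with cells counted, 51 without the 2 Day 4 plates, 38 without the 2 Day 2 plates, 20 on 4 and 10 on 10 experiment sums, and all 74 with main plates only. Signs turned with cells counted for Trim28 (0.19), Dnmt1 (0.13), Top2a (0.076), Hsp90aa1 (0.35), Odc1 (0.10), Prdx1 (0.28) and Krt18 (-0.0060), and with spike-in scaling for Slc2a1 (-0.27). Krt18 read -2.97 with the culture as block and -0.32 without the 2 Day 4 plates, where Krt8 read -0.23. Leaving out 1 plate gave -0.44 to 2.46 for Krt18 and -0.56 to 4.85 for Krt8. List medians turned for Nodal, BMP and LIF genes (0.034, main plates only), neurogenesis (-0.13 with spike-in scaling, -0.093 with pilot plates only), neural crest (0.76, cells counted) and cyclins (-0.038, cells counted). Differences in the share of cells kept direction under every alternative run for the 11 markers that passed. They lost the call for Nanog thinned to 2000 reads (adjusted p 0.429) or with at least 10 reads (0.213), and for Pax6 without any one main Day 2 plate (0.0545). No paired analysis was possible because plates are numbered in the order of their records and no label ties a Day 2 plate to a Day 4 plate. Low counts limit the genes near 0 on 1 day.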

Other observations

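The genes of this section and its lists fall outside the rule for named genes and were chosen after the calls were seen, so their counts support nothing beyond the values. The smallest adjusted p of all genes was that of Stra8, which retinoic acid induces in germ cells before meiosis. It read 40.7, 48, 69.3 and 43 CPM on the main and 18.5 and 26.2 CPM on the pilot Day 2 plates, and 2076, 1102 and 1640 CPM and 658 and 1448 CPM on the Day 4 plates (log2 change 5.21 ± 0.30, edgeR adjusted p = 3.34e-06, 0.00636 on 4 and 0.0799 on 10 experiment sums). Rec8, a cohesin subunit of meiosis, rose from 15.9 to 40.4 CPM to 198.4 to 278.7 CPM on the main and 114.2 and 191.4 CPM on the pilot plates (log2 change 3.05 ± 0.30, edgeR adjusted p = 0.000206), a call lost with the culture as a correlated block (limma adjusted p = 0.0993) and on 10 experiment sums (edgeR adjusted p = 0.120). Of 9 tested genes of a list of meiosis genes linked to retinoic acid, these 2 rose and Tex19.1 fell. Ooep, a gene of oocytes and early embryos, fell by 4.28 on the log2 scale (edgeR adjusted p = 0.000126).

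Some genes of growth and synthesis fell on plate sums. Over all genes tested, 1.86% fell and 49.3% had a fitted log2 change above 0. The median log2 ratio of all genes tested was 0.01 for main and 0 for pilot plates. Odc1, the first enzyme of polyamine synthesis, stood at 1060 to 1203 CPM on the 6 Day 2 plates and at 268.2 to 386.01 CPM on the 5 Day 4 plates (log2 change -1.84 ± 0.16, edgeR adjusted p = 0.000103), and Srm, the spermidine synthase, changed by -2.15 ± 0.24 (edgeR adjusted p = 0.000466). Of 30 tested genes of ribosome biogenesis 15 fell, among them the helicase Ddx21 (log2 change -1.49 ± 0.26, edgeR adjusted p = 0.00933), and all 30 had a lower fitted level, with a median log2 ratio of -1.05 for main and -1.12 for pilot plates. Of 25 genes of thiol and peroxide defence 11 fell, among them Prdx1 (log2 change -1.81 ± 0.19, edgeR adjusted p = 0.000412) and Txnrd1 (log2 change -1.58 ± 0.18, edgeR adjusted p = 0.000605). Of 17 genes of amino acid transport and the Atf4 response 7 fell, among them the carrier Slc7a3 (log2 change -4.55 ± 0.92, edgeR adjusted p = 0.0211). In serine, glycine and one-carbon metabolism 6 of 18 fell, in sterol synthesis 4 of 21, Idi1, Fdps, Fdft1 and Insig1, and among tRNA synthetases 3 of 20, and none of these lists held a rise. Fdps, which makes farnesyl diphosphate, changed by -1.88 ± 0.24 (edgeR adjusted p = 0.00114). With cells counted in place of reads, Odc1, Srm, Prdx1, Txnrd1, Fdps and Ddx21 did not pass (adjusted p from 0.103 to 0.993), and Odc1 and Prdx1 had a positive log2 change (0.10 and 0.28). Without 1 plate the call was lost by Slc7a3 (any of 6 main plates, highest adjusted p 0.0836) and Ddx21 (the third main Day 4 plate, 0.0522).

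The 1 deep cell of the first pilot Day 4 plate, with 9820736 gene reads, held 99.1% of that plate's Krt8 reads, 97.3% of Krt18 and 99.2% of H19, genes of simple epithelia and of extraembryonic and fetal tissue. On that plate Krt8 read 2925 CPM with the cell and 44 CPM without it, Krt18 2951 and 137.6 CPM, and H19 1001 and 14.1 CPM. Zscan4c, whose near-identical copies make its counts uncertain, read 163.5 CPM on 1 main and 198.1 CPM on 1 pilot Day 4 plate, and 65.3% and 99.9% of those reads came from 1 cell each.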
